A study of Homo sapiens with 24 samples.

Results

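IGF2BP1 knockdown was compared directly with IGF2BP2 knockdown in HepG2 cells, an established human liver cancer line. The comparison took the 12 libraries labelled siIGF2BP1 or siIGF2BP2 of the 24 libraries in the series, with 6 libraries per knockdown. The series measured polyadenylated RNA at 0, 3 and 6 h of actinomycin D, a drug that blocks transcription, after siRNA transfection. It asked how loss of each IGF2BP protein altered the lifetime of mRNAs. The 6 siIGF2BP1 libraries came from cells given siRNA against IGF2BP1, and the 6 siIGF2BP2 libraries from cells given siRNA against IGF2BP2, with 2 replicates at each of the 3 time points. All cells carried an siRNA, and actinomycin D was used at 5 µg/ml, with 0 h as its start. No siControl library entered the tests, so a change that only the control siRNA produced cannot appear as a difference here. Per the methods, transfected cells of a plate were reseeded into separate plates for the time points, so the 6 libraries of a knockdown may rest on 2 transfections. The p-values then measure partly technical spread, and a test on counts summed over time, 2 sums against 2, is given beside the main counts. These sums joined libraries by replicate number, and the labels do not say whether libraries of the same number share a transfection. They weigh a deeper library more and so mix the time points in unequal parts. The 0 h libraries of siIGF2BP1, for example, held 73963280 and 37210275 gene reads. A shifted median in the sums can thus come from depth as well as from transfections. Fewer calls can come from these and from testing 2 sums against 2 in place of 6 libraries against 6. The parts were not told apart.

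IGF2BP1, IGF2BP2 and IGF2BP3 encode closely related RNA-binding proteins with RNA recognition motifs and KH domains. They bind mRNAs, largely in 3' untranslated regions (3' UTRs), and are known for affecting mRNA stability, localization and translation. IGF2BP1 and IGF2BP3 are mostly fetal proteins that reappear in cancers, whereas IGF2BP2 is also made in adult tissue. Liver cancer cells such as HepG2 express all members of the family.

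The libraries held 37210275 to 73963280 gene reads each. All 14 HepG2 identity markers, such as ALB and AFP, were detected in both knockdowns. Their summed level was 75000 to 103000 CPM (the reads of a gene scaled to a common library total) in siIGF2BP1 and 69700 to 96300 CPM in siIGF2BP2. Of 16 fibroblast, endothelial and blood markers, only LYZ, PDGFRB and CD14 reached a mean of 1 CPM in either knockdown. PTPRC, CD3E and LUM were at 0 in all 12 libraries, and the endothelial markers PECAM1, VWF and CDH5 had means of 0.327 to 0.695 CPM. The 16 summed to 908 to 1380 CPM in siIGF2BP1 and 786 to 1210 CPM in siIGF2BP2, nearly all from LYZ. Differences are given as log2 of siIGF2BP1 over siIGF2BP2 (negative where the mRNA was lower after IGF2BP1 knockdown) with the standard error (SE). Levels are CPM after TMM scaling, which equalizes the bulk of transcripts between libraries. In bulk RNA, fewer cells making a transcript and less of it per cell cannot be told apart.

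The siRNA targets were examined first. IGF2BP1 (ENSG00000159217.9, chr17:48997385-49056145, plus strand, hg38) was at 132 and 135 CPM at 0 h, 121 and 115 CPM at 3 h, and 113 and 118 CPM at 6 h in siIGF2BP1. In siIGF2BP2 it was at 645 and 628 CPM at 0 h, 744 and 732 CPM at 3 h, and 759 and 776 CPM at 6 h. The groups did not overlap. Over all time points the difference was -2.54 (SE 0.041, edgeR adjusted p 4.91e-31, n = 6 per knockdown).

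IGF2BP2 (ENSG00000073792.15, chr3:185643130-185825042, minus strand) showed the opposite pattern. It was at 184 and 189 CPM at 0 h, 224 and 220 CPM at 3 h, and 234 and 240 CPM at 6 h in siIGF2BP1. In siIGF2BP2 it was at 45.5 and 44.8 CPM, 43.3 and 43.7 CPM, and 51.2 and 49.6 CPM at the same times. The difference was 2.21 (SE 0.032, edgeR adjusted p 4.04e-32), again with no overlap. For both genes the exact two-sided permutation test within time points, over 216 relabelings, gave p = 0.00926, the smallest it can give. Each targeted mRNA was therefore low only in the libraries labelled for it among these 12.

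The gaps in both targeted mRNAs were larger at 6 h than at 0 h of actinomycin D. The IGF2BP1 difference went from -2.27 at 0 h to -2.72 at 6 h, and the change itself differed by -0.45 (SE 0.042, edgeR adjusted p 9.07e-10). That of IGF2BP2 was 2.04 at 0 h, 2.35 at 3 h and 2.24 at 6 h, a 0 h to 6 h difference of 0.21 (SE 0.051, edgeR adjusted p 0.017). Neither was called with a slope on time in edgeR, which called 0 genes (569 at an unadjusted p under 0.05). IGF2BP3 (ENSG00000136231.13, chr7:23310209-23470491, minus strand), which neither siRNA was aimed at, was at 114 to 167 CPM in siIGF2BP1 and at 97.7 to 136 CPM in siIGF2BP2. It was higher after IGF2BP1 knockdown, without overlap within any time point, by 0.28 overall (SE 0.022, edgeR adjusted p 2.12e-12). As a reference outside the comparison, its mean in siControl was 120 CPM.

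**Figure D1:**
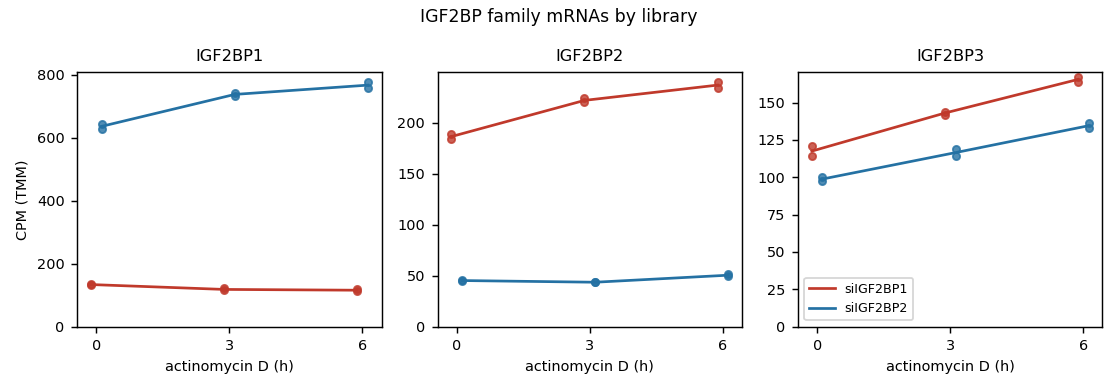
Levels of IGF2BP1, IGF2BP2 and IGF2BP3 (CPM after TMM scaling, y axes from 0) against hours of actinomycin D in siIGF2BP1 (red) and siIGF2BP2 (blue). Points are libraries, offset sideways for visibility, and lines join the means of 2 replicates. The knockdowns separate widely for IGF2BP1 (113 to 135 CPM against 628 to 776 CPM) and for IGF2BP2, and by a smaller margin for IGF2BP3.

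Across the 12872 genes tested, the knockdowns differed in many mRNAs by small amounts. With time as a block, 5707 genes (44.3%) passed an edgeR adjusted p of 0.05, of which 2973 (23.1%) were higher and 2734 (21.2%) lower in siIGF2BP1. The median size of a called difference was 0.193 on the log2 scale, and 589 genes (4.58%) also differed by at least 0.5. At single time points, 3043 genes (23.6%) were called at 0 h, 3907 (30.4%) at 3 h and 4001 (31.1%) at 6 h. Of the 5707 genes, 2881 were already called in the same direction at 0 h and 1952 at all 3 time points. The balance of directions depended on the scaling. With the ERCC spike-in, synthetic RNA added per mass of total RNA, the median of all genes moved to -0.082 and the calls became 1122 higher and 3800 lower. In counts summed over time, 2 against 2, 1335 genes were called, 651 higher and 684 lower. These sums also carry the uneven depth of the time points and the smaller number of units tested.

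The 12 mRNAs with the largest positive differences were led by NFIX, which encodes a nuclear factor I transcription factor. NFIX was at 48.8 and 47.7 CPM at 0 h, 32.8 and 27.2 CPM at 3 h, and 22.7 and 21.9 CPM at 6 h in siIGF2BP1. In siIGF2BP2 it was at 16.8 and 15.5 CPM, 9.66 and 8.74 CPM, and 6.39 and 6.97 CPM. It stood higher in siIGF2BP1 at each time, by 1.66 overall (SE 0.051, edgeR adjusted p 3.58e-23). Its mean in siControl, 28.6 CPM, lay near the 33.5 CPM of siIGF2BP1 and far above the 10.7 CPM of siIGF2BP2.

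DCP2, the decapping enzyme that removes the 5' cap of mRNAs bound for decay, ranged from 49.1 to 62.3 CPM (median 57.4) in siIGF2BP1 and from 19.9 to 28.2 CPM (median 21.2) in siIGF2BP2. The difference was 1.30 (SE 0.041, edgeR adjusted p 5.88e-23). PDSS2, a subunit of the enzyme that makes the side chain of coenzyme Q, ranged from 27.9 to 38.9 CPM against 13.6 to 17.2 CPM, a difference of 1.13 (SE 0.045, edgeR adjusted p 3e-20). For both genes all siIGF2BP1 libraries lay above all siIGF2BP2 libraries.

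Another 7 of the 12 were C2orf69 (1.29), NEK7 (1.28), a mitotic kinase that also takes part in the NLRP3 inflammasome, SUCO (1.14), SHOC2 (1.11), a scaffold of RAS to RAF signalling, MPHOSPH6 (1.05), an RNA exosome cofactor, CCDC43 (1.04) and RRS1 (1.02), a ribosome assembly factor. For all 7 the edgeR adjusted p was at most 6.26e-14. C2orf69, SHOC2 and RRS1 fell steeply with time and their ranges overlapped when times were pooled, but not within any time point. The 13th gene of this ranking, TXNIP, was at 1.00. Among C2orf69 exon bases 10.3% are shared with a gene on the same strand, and 11.3% of those of RRS1, so their counts carry that uncertainty.

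The 12 mRNAs with the largest negative differences were led by DKK1, a secreted inhibitor of Wnt signalling. DKK1 was at 144 and 149 CPM at 0 h, 57.4 and 54 CPM at 3 h, and 33.3 and 30.1 CPM at 6 h in siIGF2BP1. In siIGF2BP2 it was at 373 and 363 CPM, 183 and 177 CPM, and 107 and 112 CPM. The siIGF2BP2 libraries were higher at every time. The difference was -1.34 at 0 h and widened to 6 h (difference in change -0.44, SE 0.057, edgeR adjusted p 3.4e-06). Overall the difference was -1.57 (SE 0.042, edgeR adjusted p 5.61e-25). The siControl mean of 127 CPM lay between the means of 78 CPM in siIGF2BP1 and 219 CPM in siIGF2BP2.

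LTA4H, the enzyme that makes leukotriene B4, ranged from 30.9 to 38.1 CPM in siIGF2BP1 and from 60.4 to 92.6 CPM in siIGF2BP2, a difference of -1.15 (SE 0.039, edgeR adjusted p 4.69e-22). PTPRU, a receptor tyrosine phosphatase, differed by -1.08 (50.8 to 62.8 CPM against 96.7 to 145 CPM). IL1RAP, the shared accessory chain of interleukin-1 receptors, differed by -1.08 (17 to 19.2 CPM against 35.8 to 40 CPM).

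Another 7 of the 12 were ARHGAP45 (-1.34), PIAS3 (-1.28), an inhibitor of STAT3, SEMA6A (-1.24), a transmembrane semaphorin, ANKRD1 (-1.21), a well-known target of YAP and TEAD, KCNJ10 (-1.13), a potassium channel, SLC19A3 (-1.11), a thiamine transporter, and CREBL2 (-1.09). All had an edgeR adjusted p of at most 1.84e-11. PTPRU as the last gene inside and PCYT1B as the first outside were both at -1.08. Over the 24 genes of both directions, 18 had no overlap between the knockdowns over all 12 libraries, and all 24 had none within each time point. The genes were picked for large differences of 1 sign, so this follows largely from the choice. The share without overlap over all genes was not counted. All 24 were also called in the test of summed counts, 2 against 2, beside 1335 of the 12872 genes tested.

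**Figure D2:**
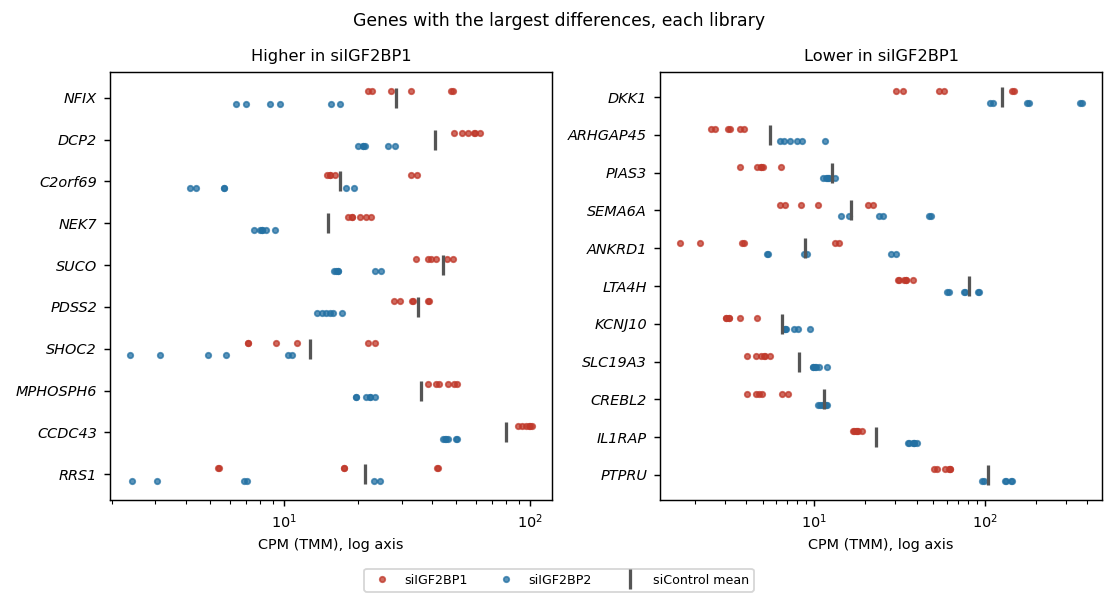
Levels (CPM after TMM scaling, log axis) of genes among the 12 with the largest difference in each direction (10 in the left panel, 11 in the right), 1 point per library and 6 libraries per knockdown, with the siControl mean of 6 libraries as a vertical mark. Most genes of the left panel have siControl near the siIGF2BP1 points (NFIX, 28.6 CPM), and PIAS3, LTA4H and CREBL2 of the right panel have it near the siIGF2BP2 points.

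The siControl libraries, which took no part in the tests, show which knockdown stood farther from untargeted cells. Leaving out the siRNA targets, 240 called genes were higher by at least 0.5 in siIGF2BP1, and in 158 of them siIGF2BP2 was the farther from the siControl mean on the log2 scale. Of 347 genes lower by at least 0.5, siIGF2BP1 was the farther in 244. In 167 of the 240 and in 267 of the 347 the siControl mean lay between the knockdowns. All these genes were picked for a wide gap between the knockdowns, so siControl lying between follows partly from the choice. The same shares over all genes tested were not counted, and these counts carry no test. PDSS2 had a siControl mean of 35 CPM and SUCO 44.1 CPM, inside the siIGF2BP1 range in each case. LTA4H had 80.7 CPM and PIAS3 12.7 CPM, inside the siIGF2BP2 range.

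Short words in the 3' UTRs of these mRNAs were then ranked, a step chosen after the differences had been seen. An siRNA can lower mRNAs other than its target when bases 2 to 8 of its guide strand, the seed, pair with their 3' UTR, as a microRNA does. The sequences of the siRNAs used are not given in the sources used here, so their seeds were not compared. All 7-letter words held by at least 500 of the 3' UTRs (11241 words, sense strand only, canonical transcripts of GENCODE) were ranked by the mean difference of genes with the word minus that of genes without, over the 11240 tested genes with a 3' UTR. The word at the lower end was ACTCCAA (-0.071, 1064 genes) and the word at the higher end was GAGATTA (0.106, 1193 genes). The word ranked next at the lower end, GCTCCAA, was at -0.048. At the higher end AGATTAA followed at 0.062, and each of these shares 6 letters in a row with the word it follows. ACTCCAA and GAGATTA also held rank 1 at 0 h, 3 h and 6 h alone, with ERCC scaling, with a minimum of 200 regions, and after a linear fit on length and GC of the region. All these settings use the libraries that chose the words, and the single time points are parts of the values that chose them. A change of scaling moves genes with and without a word nearly alike. The ranks therefore describe the choice and carry no test.

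Of the 12 genes with the largest positive difference, 9 hold GAGATTA in the 3' UTR, among them NFIX, DCP2, NEK7, SUCO, PDSS2 (2 copies), MPHOSPH6, CCDC43 and RRS1, against 10.6% of all 3' UTRs. Of the 12 with the largest negative difference, PIAS3 and SEMA6A hold ACTCCAA, against 9.47% of all. Against these directions, C2orf69 among the higher genes holds 1 copy of the lower-end word, and SLC19A3 among the lower genes holds 1 copy of the higher-end word. The genes and the words were picked on the same differences, so these counts follow partly from the choice and carry no test. Sites of 6 of these genes and of TGFBR3, described with its list, are printed to show the words in place, as they stand in the mRNA, 5' to 3', with the word in capitals and 11 bases on each side. They are from the plus strand of the genome for NFIX, DCP2, NEK7 and SUCO and from the minus strand for PIAS3, SEMA6A and TGFBR3.
NFIX, chr19:13097040-13097068: ttgtatgttaaGAGATTAagaaaaaaaaa
DCP2, chr5:113015440-113015468: ctgaagcaaaaGAGATTAtagttaccaga
NEK7, chr1:198320791-198320819: agaactgttatGAGATTAacatttctatt
SUCO, chr1:172611228-172611256: ttaagtctaaaGAGATTAttattccttga
PIAS3, chr1:145848860-145848888: aaaaccaaaatACTCCAAagatgacttcc
SEMA6A, chr5:116444725-116444753: attaacgagtaACTCCAAgtacaaggccg
TGFBR3, chr1:91680985-91681013: aaatgccccaaACTCCAAggcagattgtc
Only the word was searched for, and the flanks were not compared.

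The targeted mRNAs hold the words as well, each word once per transcript. In IGF2BP1, ACTCCAA lies in the coding sequence (plus strand) and in IGF2BP2, GAGATTA lies in the coding sequence (minus strand). The other word of each pair is in the IGF2BP1 coding sequence (GAGATTA) and in the IGF2BP2 3' UTR (ACTCCAA).
IGF2BP1, chr17:49045002-49045030: cgaaacacctgACTCCAAagttcgtatgg
IGF2BP2, chr3:185675332-185675360: gtgctgagataGAGATTAtgaagaagctg
The other sites are not printed. Both transcripts hold both words, so the matches do not set the targets apart. How many transcripts of such length hold a given word was not counted. These matches are a description, and whether either siRNA covers them was not tested.

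The shift with each word was small and spread over many genes. Genes with no GAGATTA had a median difference of 0, those with 1 copy 0.056 and those with 2 or more copies 0.078. The share called higher was 23.8%, 40.4% and 46.1% in the same order, beside 25.6% of all genes with a 3' UTR. For ACTCCAA the medians were 0.011, -0.045 and -0.069, and the shares called lower 21%, 33.2% and 30.2%, beside 22.1% of all. Among the 9195 genes with neither word the median was 0.005, with 24.5% called higher and 21.7% lower. Both words were chosen on these same differences, so these values describe the choice and carry no test.

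The words were also counted among the larger differences. These are part of the values that chose the words, so the shares below, also by length, describe the choice and carry no test. Of 211 genes with a 3' UTR that were higher by at least 0.5 in siIGF2BP1, 84 (39.8%) hold GAGATTA, against 10.6% of all. Of 276 that were lower by at least 0.5, 58 (21%) hold ACTCCAA, against 9.5% of all. In the opposite directions, 6.9% of the lower genes hold GAGATTA and 7.6% of the higher genes hold ACTCCAA. With a minimum difference of 1, the first of these words was held by 9 of 18 higher genes (50%) and by 5 of 33 lower genes (15.2%). The second was held by 6 of the 33 lower genes (18.2%) and by 2 of the 18 higher genes (11.1%). Longer 3' UTRs hold more words by length alone, and the median length was 1328 bases for all genes, 1574 for the higher and 1312 for the lower genes. Within 3' UTRs under 1000 bases, 19.5% of the 77 higher genes hold GAGATTA against 1.9% of all. From 1000 to 3000 bases the shares were 43.8% of 80 and 10.5%, and above that 63% of 54 and 27.4%. For ACTCCAA and the lower genes the shares were 9.6% against 2.6%, 29.2% against 9.5%, and 28.6% against 22.4% in the same bands.

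Each word went with a lower level in a different knockdown. Set against siControl means, genes with ACTCCAA had a median of -0.041 in siIGF2BP1 and 0.005 in siIGF2BP2, and genes without it 0.014 and 0.007. Genes with GAGATTA had a median of 0.006 in siIGF2BP1 and -0.049 in siIGF2BP2, and genes without it 0.010 and 0.011. In siIGF2BP3, genes with the words were at 0.002 and 0.010. The words were chosen on the difference between these knockdowns, so a gap between siIGF2BP1 and siIGF2BP2 follows from the choice. These values share the siControl libraries and are given as levels, with no test.

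**Figure D3:**
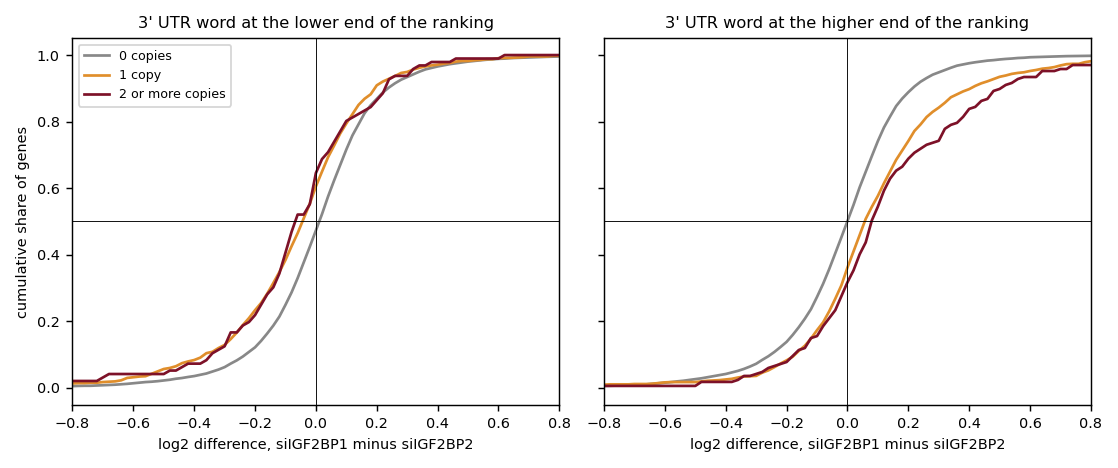
Cumulative share of genes (y axis) against the log2 difference, siIGF2BP1 minus siIGF2BP2 (x axis), for genes with 0, 1, and 2 or more copies of the 3' UTR word at the lower end (left, ACTCCAA) and at the higher end (right, GAGATTA) of the ranking. Genes with copies lie to the left of those without in the left panel (median -0.045 for 1 copy against 0.011) and to the right in the right panel (0.056 against 0).

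Gene lists were described next by their counts and medians, beside 23.1% higher, 21.2% lower and a median of -0.002 over all genes tested. With ERCC scaling every list median shifts down with that of all genes, by about 0.08, and the ERCC counts are given where they turn a direction. The lists of mRNAs reported to be bound or stabilized by an IGF2BP protein did not move as a block. Of 16 measured IGF2BP1 clients, 5 were higher and 6 lower in siIGF2BP1, with a median of -0.031 (2 higher and 7 lower with ERCC scaling). IGF2 had the largest positive difference of them, 0.32 (SE 0.017, edgeR adjusted p 9.92e-17), at 1060 to 2050 CPM in siIGF2BP1 and 841 to 1580 CPM in siIGF2BP2. Of its exon bases 43.2% are shared with another gene on the same strand. ACTB differed by 0.20, and MKI67, the proliferation marker, by -0.18 (edgeR adjusted p 1.59e-09). MYC, at a mean of 51.6 CPM in siIGF2BP1 and 54.4 CPM in siIGF2BP2, differed by -0.15 (SE 0.05, edgeR adjusted p 0.0156).

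Of 13 measured IGF2BP2 clients, 2 were higher and 6 lower in siIGF2BP1 (median -0.045). The lower ones were led by CCND1, cyclin D1, at 222 to 261 CPM against 261 to 352 CPM (-0.37, SE 0.024, edgeR adjusted p 2.21e-14), and by HMGA1, a chromatin architectural protein (-0.35, edgeR adjusted p 1.57e-19).

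Secreted plasma proteins, the main products of hepatocytes, were higher after IGF2BP1 knockdown in 27 of 43 measured members and lower in 8, with a median of 0.152. HP, haptoglobin, ranged from 126 to 219 CPM against 76.5 to 145 CPM (0.63, SE 0.022, edgeR adjusted p 1.04e-21). RBP4, the carrier of retinol, differed by 0.44 (SE 0.015, edgeR adjusted p 1.17e-21). Albumin (ALB) was at a mean of 15100 CPM against 13300 CPM (0.18) and APOB at 38800 CPM against 33900 CPM (0.20). Against the trend, CP, the copper-carrying ferroxidase ceruloplasmin, was lower in siIGF2BP1, at 66 to 106 CPM against 101 to 173 CPM (-0.67, SE 0.027, edgeR adjusted p 3.95e-20), and so was C5 (-0.58). In the summed counts 7 of the 43 were called higher and 3 lower.

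Hepatocyte transcription factors divided, with 5 of 26 higher and 7 lower (median -0.034, and 0.083 in the summed counts, where 3 were called higher and 1 lower). NR1H4, the bile acid receptor FXR, ranged from 49 to 116 CPM in siIGF2BP1 and from 33.5 to 70.3 CPM in siIGF2BP2 (0.66, SE 0.03, edgeR adjusted p 1.25e-18). HNF4A, a master regulator of hepatocyte genes, differed by 0.23 (SE 0.019, edgeR adjusted p 4.75e-12). NR2F1 (COUP-TFI) differed by -0.51 (SE 0.051, edgeR adjusted p 5.21e-10). Of the 14 HepG2 identity genes, 6 were higher and 3 lower, with differences between -0.18 and 0.25. Their median was 0.024, and -0.055 with ERCC scaling (4 higher, 5 lower).

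TGF-beta and BMP signalling genes carry signals from secreted ligands through receptors to SMAD factors. Of 37 measured members, 19 were lower after IGF2BP1 knockdown and 4 higher, with a median of -0.117 (-0.194 with ERCC scaling). By role, the co-receptor TGFBR3 ranged from 67.2 to 92.9 CPM in siIGF2BP1 and from 124 to 178 CPM in siIGF2BP2, without overlap (-0.95, SE 0.028, edgeR adjusted p 7.22e-24), and its siControl mean was 211 CPM. The ligands BMP4 and TGFB1 differed by -0.39 and -0.21. Among target genes, CCN2, a matricellular protein, was lower by 0.73 on the log2 scale (SE 0.043, edgeR adjusted p 1.5e-15), and ID1, ID2 and ID3, inhibitors of helix-loop-helix factors, were at -0.29, -0.24 and -0.56. INHBE was the largest exception, at 0.58. The signal carriers SMAD2 and SMAD4 were not called (0.07 and 0.08). In the summed counts 5 were called lower and 1 higher.

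Of 28 measured interferon response genes, 15 were higher in siIGF2BP1 and only IFITM3 was lower (-0.25), with a median of 0.213 (10 higher and 2 lower with ERCC scaling). PARP14, a mono-ADP-ribosyltransferase, ranged from 59.7 to 73.6 CPM in siIGF2BP1 and from 37.7 to 44.5 CPM in siIGF2BP2 (0.65, SE 0.03, edgeR adjusted p 1.8e-18), and holds 1 GAGATTA. DTX3L, its ubiquitin ligase partner, and USP18, which removes ISG15, differed by 0.37 each (edgeR adjusted p 5.85e-09 and 5.71e-08). ISG15 itself was not called (-0.07). Many members were scarce, with IFIT1 at 0.919 CPM in siIGF2BP1 and 0.576 CPM in siIGF2BP2 (0.64, edgeR adjusted p 0.0214). The siControl mean of PARP14, 55.3 CPM, lay between the knockdowns.

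In the stress response list 13 of 26 members were higher and 5 lower (median 0.110). With ERCC scaling this became 4 higher and 7 lower. PSAT1 and PHGDH, enzymes of serine synthesis, differed by 0.40 and 0.30 (edgeR adjusted p 1.11e-17 and 3.34e-15). PDIA4, an endoplasmic reticulum chaperone, differed by 0.19. The transcription factors ATF4 and ATF3 went the other way (-0.10 and -0.47).

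Cholesterol and fatty acid synthesis was split, with 12 of 34 higher and 15 lower (median -0.059, and 4 higher and 18 lower with ERCC scaling). IDI1, isopentenyl diphosphate isomerase, ranged from 98.6 to 121 CPM in siIGF2BP1 and from 48.5 to 71.5 CPM in siIGF2BP2 without overlap (0.87, SE 0.033, edgeR adjusted p 1.28e-20). It holds 2 copies of GAGATTA in its 3' UTR, and its siControl mean was 117 CPM. MSMO1, a sterol demethylase, differed by 0.36 and FADS1, a fatty acid desaturase, by -0.19. FADS1 holds both words, with 2 copies of ACTCCAA and 1 of GAGATTA.

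Cytosolic ribosomal protein mRNAs were lower in siIGF2BP1 in 46 of 78 members and higher only for RPL6 (0.17, not called with ERCC scaling), but by little, with a median of -0.052. RPS15 stood apart from the rest, at 218 to 429 CPM against 387 to 759 CPM (-0.82, SE 0.019, edgeR adjusted p 3.43e-26), lower at each time point without overlap, and its siControl mean was 560 CPM. The next member of the list, RPS28, differed by -0.18. In the summed counts RPS15 was the only member called (edgeR adjusted p 5.61e-04). Ribosomal protein genes have many processed pseudogenes, and how reads shared with them were counted was not stated.

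Nuclear subunits of the respiratory chain were called higher in 19 of 73 and lower in 6, with a median of 0.044 that turned to -0.034 with ERCC scaling (2 higher, 13 lower). ATP5MF, a subunit of ATP synthase, had the largest difference, at -0.58 (SE 0.051, edgeR adjusted p 2.22e-11), with 11.3 to 17.2 CPM against 15.8 to 27.3 CPM. ATP5F1D and NDUFAB1 differed by 0.23 and 0.20. The 13 mRNAs encoded in mitochondria were 7 higher and 1 lower (median 0.053), and 1 higher and 1 lower with ERCC scaling. MT-CO2 differed by 0.14, MT-CO3 by 0.10 and MT-ND1 by -0.09. None of the 13 was called in the edgeR test of summed counts. In the 0 h to 6 h change, 7 of the 13 were called with less relative loss in siIGF2BP1, led by MT-CO2 (0.25, edgeR adjusted p 1.07e-08), and MT-ATP8 was called the other way (-0.92), beside 1.23% and 0.878% of all genes. Over all genes that test fell from 271 calls to 16 with ERCC scaling and to 0 with a slope on time in edgeR (569 at an unadjusted p under 0.05, DESeq2 259 for the 0 h to 6 h change).

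Insulin and IGF signalling genes were 7 higher and 8 lower of 30 (median -0.016, and 2 higher and 11 lower with ERCC scaling). IGFBP1, a secreted IGF carrier made by liver, was at 12.8 to 34.2 CPM in siIGF2BP1 and 22.6 to 50.3 CPM in siIGF2BP2 (-0.88, SE 0.068, edgeR adjusted p 9.87e-13). The receptors IGF1R (0.00) and IGF2R (-0.01) were not called. In RNA decay and microRNA machinery 21 of 59 were higher and 7 lower (median 0.029, and -0.048 with ERCC scaling, 5 higher and 12 lower). Beside DCP2, CNOT1, the scaffold of the CCR4-NOT deadenylase, differed by 0.30 (610 to 716 CPM in siIGF2BP2 and 731 to 899 CPM in siIGF2BP1, edgeR adjusted p 9.92e-17), and AGO2, the slicing Argonaute, by 0.28 (edgeR adjusted p 4.01e-11).

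**Figure D4:**
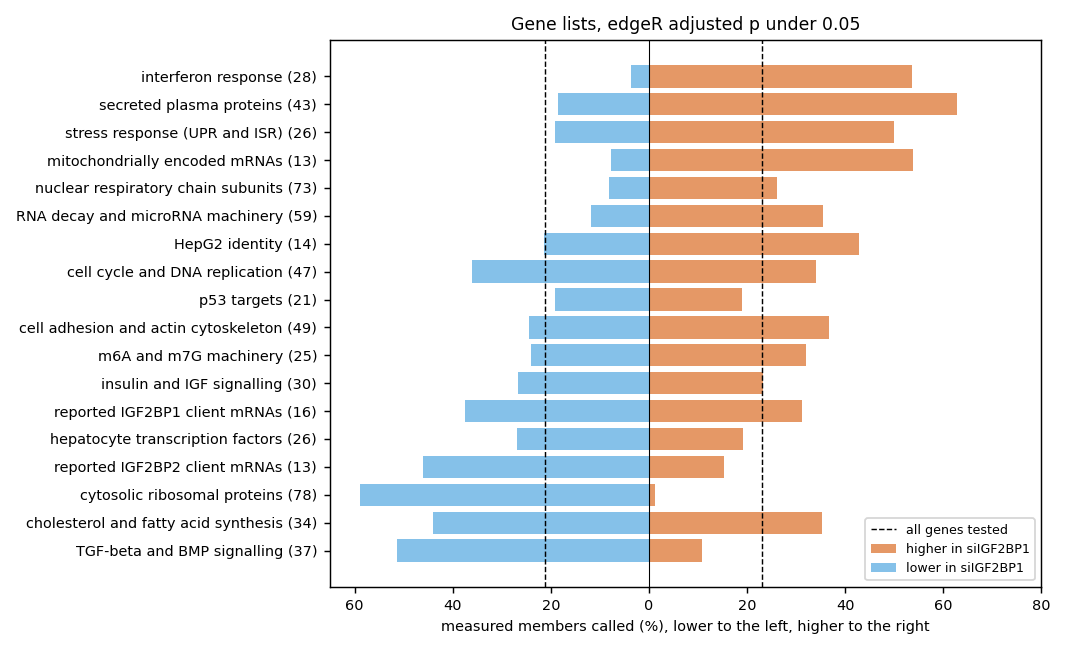
Share of measured list members (x axis, percent) called lower (left, blue) or higher (right, orange) in siIGF2BP1 at an edgeR adjusted p under 0.05, with the number measured in parentheses and dashed lines for all genes tested (21.2% lower, 23.1% higher). Interferon response and secreted plasma proteins lean to the right, and TGF-beta and BMP signalling and ribosomal proteins to the left.

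The last comparison asked whether transcripts were lost at different rates after transcription was blocked. The difference in the 0 h to 6 h change was called for 271 genes (2.11%) under TMM scaling, 158 (1.23%) with less relative loss in siIGF2BP1 and 113 (0.878%) with more. Of these, 221 also differed over all time points. The result was sensitive to the scale and model. ERCC scaling called 16 genes (6 with less and 10 with more loss), and library-size scaling 267 with the directions reversed in number (102 and 165). A slope on time called 0 genes in edgeR, with 569 at an unadjusted p under 0.05, and DESeq2 called 259 for the 0 h to 6 h change. Gene reads per ERCC read, the measure of total polyadenylated RNA per total RNA, were 710.8 and 703.4 at 0 h and 549.5 and 543.5 at 6 h in siIGF2BP1. In siIGF2BP2 they were 751.5 and 764.3 at 0 h and 535.2 and 616 at 6 h. The fall differed by 0.029 on the log2 scale (exact permutation p = 0.889 over 36 relabelings, where 0.0556 is the smallest possible). Transcript GC moved with these calls, with a median of 44% for the 158 genes, 49.1% for the 113 and 48.3% for all, and its part was not tested.

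CENPB, a protein that binds centromere DNA, was called under ERCC scaling too. It was at 51.5 and 50 CPM at 0 h, 21.8 and 19.8 CPM at 3 h, and 10.5 and 9.16 CPM at 6 h in siIGF2BP1. In siIGF2BP2 it was at 76.4 and 76.1 CPM, 53.5 and 53 CPM, and 28.3 and 26.4 CPM. It was lower in siIGF2BP1 from the start and the gap widened, by -0.87 (SE 0.092, edgeR adjusted p 1.68e-08). On the ERCC scale 12.3% of the 0 h level was left at 6 h in siIGF2BP1 and 22.4% in siIGF2BP2.

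Of the other transcripts with more relative loss in siIGF2BP1, SDHAF1 and NXT1 were not called at 0 h (0.07 and -0.15), ID3 was already lower (-0.31, edgeR adjusted p 0.00767) and MT-ATP8 was higher (1.01, edgeR adjusted p 2.49e-07). SDHAF1, an assembly factor of succinate dehydrogenase, was at 12.4 and 15.2 CPM against 12.5 and 13.3 CPM at 0 h and at 1.03 and 1.31 CPM against 2.48 and 3.12 CPM at 6 h (-1.33, SE 0.241, edgeR adjusted p 7.6e-04). NXT1, an mRNA export factor, ended at 0.632 and 0.763 CPM against 1.4 and 1.85 CPM (-1.08, edgeR adjusted p 0.0127). ID3 ended at 1.61 and 0.927 CPM against 3.42 and 2.88 CPM (-0.99, edgeR adjusted p 0.0061), and fell to -0.64 and lost its call without siIGF2BP1 6 h replicate 2. The fifth, MT-ATP8 (-0.92), rests on 1 library. It was at 403 and 859 CPM in the 0 h replicates of siIGF2BP1, and without the second the value was -0.28 and not called. Of its exon bases 22.2% overlap its neighbour.

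Among transcripts with less relative loss in siIGF2BP1, C2orf69 stood at 34.8 and 32.9 CPM against 19.3 and 17.8 CPM at 0 h. At 6 h it was at 15.4 and 15 CPM against 4.15 and 4.37 CPM (0.99, SE 0.132, edgeR adjusted p 5.08e-06). On the ERCC scale 28.5% was left in siIGF2BP1 and 14.4% in siIGF2BP2. RAB9A, a GTPase of endosome to Golgi transport, ended at 3.79 and 3.46 CPM against 1.54 and 1.83 CPM (0.96, edgeR adjusted p 0.00697), from 13.1 and 12.2 CPM against 11.6 and 11.2 CPM. PAPOLG, a nuclear poly(A) polymerase, and TBC1D12 differed by 0.79 and 0.77 (edgeR adjusted p 0.0117 and 0.0413), and each holds 1 GAGATTA. SMN1 (1.46) is uncertain, since its near-identical copy SMN2 can take its reads. RAB9A, PAPOLG, TBC1D12 and NXT1 were not called with ERCC scaling. Over all genes the median left at 6 h was 62.3% in siIGF2BP1 and 61.1% in siIGF2BP2 on that scale.

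**Figure D5:**
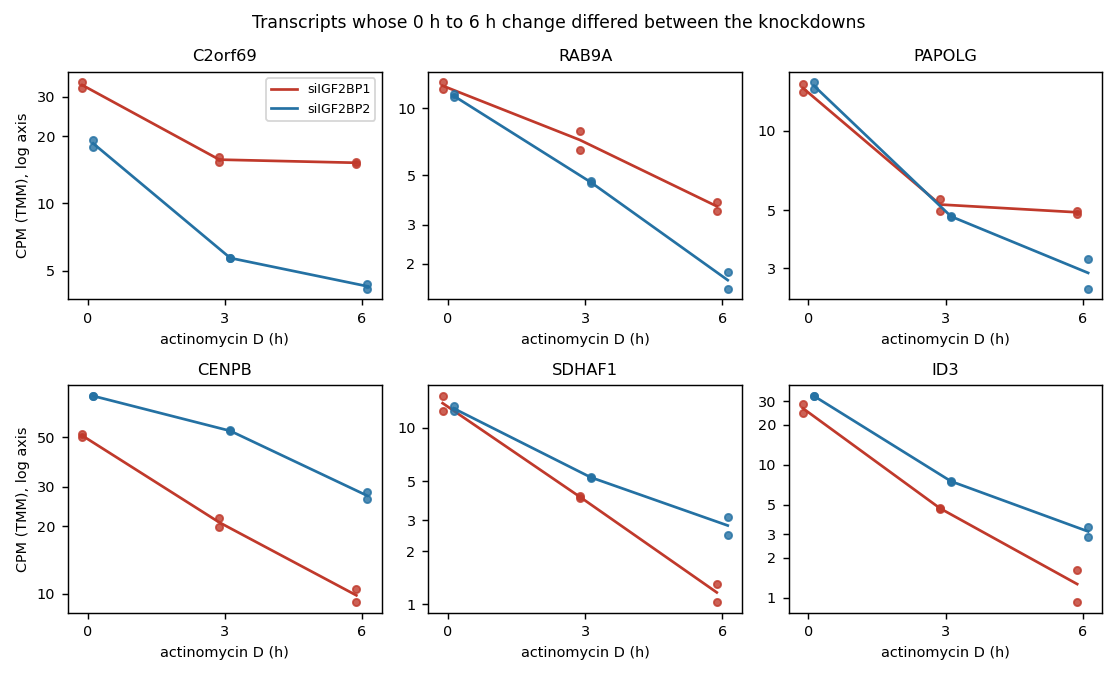
Levels (CPM after TMM scaling, log axes with separate ranges) against hours of actinomycin D for 3 transcripts with less relative loss in siIGF2BP1 (top) and 3 with more (bottom). Points are libraries and lines join means of 2 replicates. C2orf69 and CENPB differ at 0 h and separate further, and SDHAF1 starts at 12.4 to 15.2 CPM in both knockdowns and ends apart.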

How the data were processed

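Per the methods, the authors spiked ERCC RNA into purified total RNA, then sequenced stranded single-end libraries of its polyadenylated fraction. Reads were trimmed (Trimmomatic 0.39), aligned to hg38 (HISAT2 2.1.0) and counted per gene with HTSeq on GENCODE. The deposited values are raw read counts, with no normalization. Overlap and multi-mapping settings were not stated. HTSeq summary rows (13.641% to 17.064% of reads) and 45 pseudoautosomal Y rows were left out.

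Groups follow the labels. Genes reaching 1 CPM in at least 2 of the 12 libraries were tested two-sided with edgeR 4.0.16 (R 4.3.3), quasi-likelihood, TMM, time as a factor, Benjamini-Hochberg threshold 0.05. The change over time used 6 group means. Levels, with siControl, use TMM over 24 libraries. Replicates differed by more than sampling noise. Intervals from counts would cover counting error only. Counts were simulated for all 12872 genes, with libraries independent and changes put only into genes with mean CPM of at least 5. All changes of 0.5 in the difference over all time points were recovered, and 74% of those in the change over time, with 11 and 15 false calls. Recovery for rarer genes, or for libraries that share a transfection, was not tested.

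Genes were named by a rule: the family, the 12 largest called differences in each direction with mean CPM of at least 5 and 1 sign at every time point, up to 3 called members per list by adjusted p, and 5 changes over time per direction. Other members are named as examples, with values seen, and some members are not reported here. The comparison, lists and genes were chosen with earlier results of these data known. Positions, 3' UTRs and overlaps are from GENCODE on GRCh38, a later release than the authors used. Word ranking was added after seeing the data (Python 3.11.15). Alternatives were DESeq2 1.42.0, other scalings, filters, models and samples, a replicate block and leaving out each library.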

Additional observations from a re-analysis of the deposited data

Results flagged for a closer look

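The difference between the knockdowns itself differed between 0 h and 6 h for 10 named transcripts, by the edgeR test of that interaction with an adjusted p under 0.05. With more relative loss in siIGF2BP1 these were SDHAF1 (-1.33), NXT1 (-1.08), ID3 (-0.99), MT-ATP8 (-0.92) and CENPB (-0.87). With less relative loss they were SMN1 (1.46), C2orf69 (0.99), RAB9A (0.96), PAPOLG (0.79) and TBC1D12 (0.77). They are the largest of 271 such transcripts at a mean CPM of at least 5. Leaving out each library kept all 10 directions, with a range of 0.92 to 1.05 for C2orf69 and -1.38 to -0.28 for MT-ATP8. A slope on time called none of the 10 in edgeR, where 569 genes had an unadjusted p under 0.05.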

How the results depend on the processing

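The count over all time points (5707) moved to 1335 with counts summed over time and to 589 with an absolute log2 of at least 0.5, and lay at 5273 to 5572 without each library. The count for the 0 h to 6 h change (271) moved to 16 with ERCC scaling, 130 with all 24 libraries in the fit, 0 with a slope on time and 0 with a slope and ERCC scaling (569 and 233 genes at an unadjusted p under 0.05 in edgeR), and 178 to 276 without each library, with the lowest without siIGF2BP2 0 h replicate 1. A library left alone in its group was assumed to vary like the others. ERCC scaling moved the single time point counts to 1944 at 0 h, 1723 at 3 h and 2474 at 6 h, with medians of all genes of -0.117, -0.019 and -0.101. The split of the 0 h to 6 h change was 158 to 113 with TMM, 95 to 165 with RLE factors and 97 to 162 with DESeq2. The cause was not tested.

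Same-numbered replicates of the knockdowns did not deviate together (r 0.07, 0.04 and 0.03 at 0, 3 and 6 h), so the numbers were taken as names only in the main fits. Within a knockdown, same-numbered libraries of different time points did not deviate together either (r -0.03 to 0.06). The sums over time joined libraries by these numbers, so a sum may not stand for a single transfection. A replicate block gave 5706 and 300 genes, a replicate block within time 5558, and 3106, 3989 and 4065 genes at the single time points. IGF2BP1 stayed between -2.62 and -2.51 and IGF2BP2 between 2.13 and 2.24. The ERCC difference in change (0.029) ranged from -0.073 to 0.13 without each library, and turned negative without siIGF2BP2 6 h replicate 1. Of 1941 values of named genes under an alternative, 1869 kept their side of the threshold, 72 lost the call and 0 changed direction. Of the list medians under an alternative, 423 moved by less than the spread between libraries and 37 by more.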

Other observations

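The remaining lists were divided between the knockdowns. Of 47 cell cycle and DNA replication genes, 16 were higher and 17 lower in siIGF2BP1 (median 0.022, and 5 higher and 18 lower with ERCC scaling). AURKB, a mitotic kinase, was at 36.9 to 52.8 CPM against 47.9 to 63.8 CPM (-0.39, SE 0.034, edgeR adjusted p 1.54e-11), and CDC6, a replication licensing factor, differed by 0.29. Of 49 adhesion and actin genes, 18 were higher and 12 lower (median -0.002, and 5 higher and 19 lower with ERCC scaling). RDX, radixin, which holds 2 copies of GAGATTA, was at 190 to 239 CPM against 116 to 123 CPM (0.86, SE 0.032, edgeR adjusted p 5.03e-21). CLDN1, a tight junction claudin, differed by -0.38, with its siControl mean of 70.9 CPM below both knockdowns. Of 21 p53 targets, 4 were higher, among them MDM2 (0.20), and 4 lower, among them DDB2 (-0.35) and GDF15 (-0.32). The median was 0.006, and with ERCC scaling 1 was higher and 6 lower. Against its direction, MDM2 holds 1 copy of ACTCCAA, the lower-end word. Of 25 genes of the m6A and m7G machinery, 8 were higher and 6 lower (median -0.014). They included HNRNPA2B1 (0.12), the cap methyltransferase RNMT (-0.26) and the m6A reader YTHDF1 (-0.23), and with ERCC scaling 0 were higher and 9 lower in edgeR.

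LYZ, lysozyme, a marker of myeloid cells, was at 816 to 1530 CPM in siIGF2BP1 and 691 to 1290 CPM in siIGF2BP2 (0.24), while PTPRC was at 0. PDGFRB, a pericyte and fibroblast receptor, was at 5.2 to 6.5 CPM against 8.88 to 14.1 CPM (-0.88, SE 0.08, edgeR adjusted p 5.87e-11) without overlap.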
